A study of Mus musculus with 3 samples.

Results

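PRC1.6 is the variant Polycomb complex that keeps germline genes silent in cells that do not use them, and 7 of its subunit genes were followed here through early female germ cell development. The genes are Mga, Max, E2f6, L3mbtl2, Pcgf6, Rnf2 and Ring1. They were chosen by name, and all 7 were found among the 14133 genes of the table. The cells were female primordial germ cells of C57BL/6 mice from fetal ovaries of embryonic days 12.5, 14.5 or 16.5 (written E with the day), sorted for the reporter Oct4-EGFP. No other allele or treatment is named in the labels, and the sources used here do not say whether litters were pooled. Each stage was 1 droplet library without a replicate, so stage and library cannot be told apart and no test between stages was made. Intervals are 95% intervals that cover counting error only.

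As background, Mga and Max form the DNA-binding core of PRC1.6. Mga carries a T-box domain and a helix-loop-helix domain, and the second pairs with Max to bind E-box motifs. E2f6 is an E2F family member without an activation domain that brings the complex to E2F motifs. Pcgf6 is the Polycomb ring finger protein that defines this form of the complex. Rnf2 (RING1B) and Ring1 (RING1A) are its alternative ubiquitin ligases for histone H2A, and L3mbtl2 is a chromatin-binding subunit with MBT domains. In embryonic stem cells, loss of Max, Mga, Pcgf6 or E2f6 is known to release germline and meiotic genes.

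The libraries held 4706, 9075 and 5363 cells in stage order, with 125648312, 104214125 and 69821387 unique molecular identifiers (UMIs, each marking 1 captured RNA molecule). The median per cell was 26691.5, 10960 and 12659 UMIs. Germ-cell-like cells, called from clusters and a marker list, numbered 4684, 8904 and 5312. Their 9 clusters had 13 to 19 of 20 germ cell markers in at least 10% of their cells. The other cluster, of 206 cells, was pregranulosa-like (somatic supporting cells) and had all 14 pregranulosa markers measured, beside 15 of the 20 germ cell markers. In the germ-cell-like sums those 14 markers together stood at 44.6, 56.0 and 21.6 counts per 1000000 UMIs (CPM) at the 3 stages. Summed markers of erythroid cells stood at 0.303, 11.9 and 76.7 CPM, and those of blood and immune cells at 6.19, 1.14 and 48.8 CPM. Those of mesonephric epithelium were higher, at 262, 106 and 47.7 CPM, except beside the erythroid and blood and immune sums of E16.5. Endothelial markers stood at 95.1, 39.4 and 28.3 CPM and interstitial ones at 0.479, 7.60 and 18.1 CPM. The part of these other cells in the results was not tested. UMIs of Y-linked genes were found in 667 germ-cell-like cells of the E12.5 library, although it is labelled female, and in 0 of the 2 later libraries. The libraries shared 58 (E12.5 and E14.5), 72 (E14.5 and E16.5) and 43 (E12.5 and E16.5) barcode strings.

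The sequences that PRC1.6 is known to read were looked for in 17 germline genes that it is known, or commonly taken, to silence in embryonic stem cells. This list was written from general knowledge and is not a measurement of binding. RefSeq start sites of the GRCm38.p6 build gave a window for 16 of the 17 genes and for 10543 of the 14133 genes of the table. The 250 bases before each start were searched on both strands for the E-box CACGTG, the E2F motif TTCCCGC and the T-box motif AGGTGTGA. The E-box was present in 9 of the 16 genes (56.2%) and in 9.77% of all genes with a window. The E2F motif was present in 6 of 16 (37.5%) and in 8.33% of all, and both stood together in 3 of 16 (18.8%) against 0.721% of all. The T-box motif was present in 1 of 16 (6.25%) against 0.901%. Within a window, no motif overlapped another. E-boxes were also frequent before the listed subunits of other PRC1 forms (7 of 18 genes) and genes of the MAX network (4 of 10). Base composition was not matched between the lists, and a match is a description, not a site. Tuba3a and Tuba3b, near-identical copies known as E2f6 targets, are both among the 6 genes with the E2F motif. The stretches around the motifs of Tuba3a, Tuba3b, Ddx4 and Stag3 lie wholly in annotated exons, though they count as before the RefSeq start. For the 7 PRC1.6 genes and the listed targets, bases 11 to 40 after the start lay in a transcript of the gene in 19 of 25 windows. Since the list was written from known targets, its motif shares are no test. None of the 3 motifs lay before any of the 7 PRC1.6 genes themselves.

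E-box and E2F motifs are letters that the DNA-binding members are known to recognise. The windows shown here are those of listed germline genes that hold either motif and no base in an annotated exon. Each runs 5′ to 3′ in the direction of the gene, with the motif in capitals (GCGGGAA is the E2F motif read from the other strand).
Slc25a31 (chr3:40708758-40708803, plus strand): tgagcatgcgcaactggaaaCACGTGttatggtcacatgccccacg
Taf7l (chrX:134476514-134476559, minus strand): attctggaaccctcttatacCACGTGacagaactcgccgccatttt
Mael (chr1:166238942-166238987, minus strand): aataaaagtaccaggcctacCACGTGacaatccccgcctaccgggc
Sycp1 (chr3:102936169-102936214, minus strand): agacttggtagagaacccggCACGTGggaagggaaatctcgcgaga
Stk31 (chr6:49395464-49395509, plus strand): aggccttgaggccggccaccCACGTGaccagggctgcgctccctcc
Hormad1 (chr3:95559562-95559676, plus strand): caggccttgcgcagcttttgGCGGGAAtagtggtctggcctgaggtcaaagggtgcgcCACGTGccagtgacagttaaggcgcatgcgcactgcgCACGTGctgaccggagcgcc
Smc1b (chr15:85131979-85132025, minus strand): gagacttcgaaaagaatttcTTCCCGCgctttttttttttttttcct
Slc25a31, Taf7l, Mael, Sycp1 and Stk31 each show a single E-box, Smc1b a single E2F motif, and Hormad1 an E2F motif followed by a pair of E-boxes. The window of Sycp3 is not shown, since 1 of its bases lies in an annotated exon. It holds 1 E2F motif, 2 E-boxes and 1 T-box motif. Those of Ddx4, Stag3, Tuba3a and Tuba3b are not shown either, since they lie wholly in annotated exons.

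**Figure D1:**
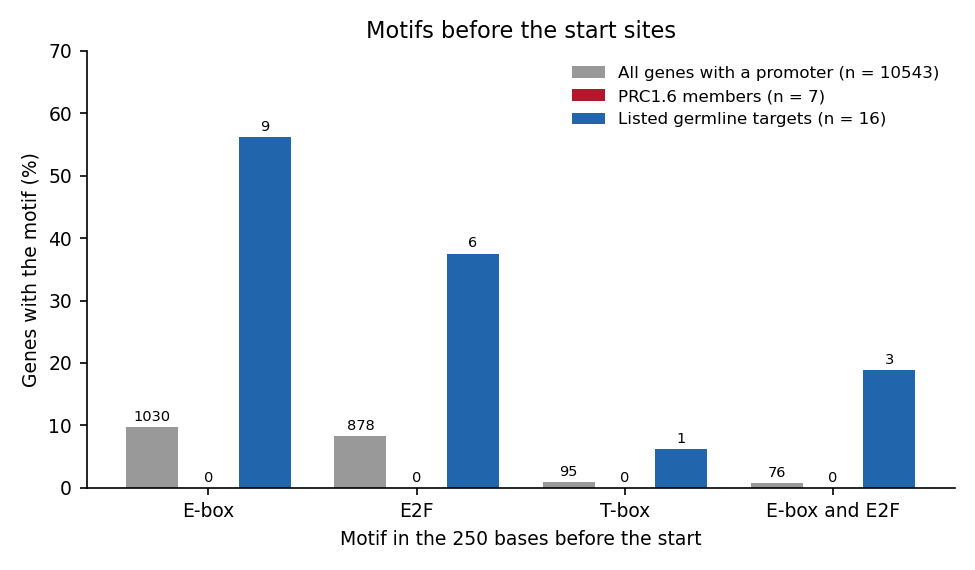
Share of genes (%) with each motif in the 250 bases before the RefSeq start, for all genes with a window (grey), the 7 PRC1.6 genes (red) and the 16 listed germline genes with a window (blue). Numbers above the bars are genes with the motif, and the blue bars stand above the grey ones for each motif while the red bars are at 0.

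The subunit genes did not share 1 course. Mga was higher at the later stages, Max and E2f6 were lower, and Pcgf6, L3mbtl2, Rnf2 and Ring1 lay within 1.3-fold between any pair of stages on the CPM scale. From E12.5 to E14.5, 1 of the 7 (Mga) was higher by 2-fold or more and 1 (E2f6) was lower by as much, beside 31.1% and 16.3% of all genes. From E14.5 to E16.5, 0 were past 2-fold in either direction (16.3% of all genes higher and 17.4% lower). Over the whole span 1 (Mga) was higher and 2 (Max and E2f6) were lower by that much, beside 37.0% and 22.7%. Against this background the counts are no result about the 7 genes as a set. The median log2 ratio of the 7 was 0.00, -0.02 and -0.02 in the 3 comparisons (E14.5 over E12.5, E16.5 over E14.5, E16.5 over E12.5), and that of all genes 0.30, 0.06 and 0.39. With TMM or median-of-ratios scaling, which bring the median of all genes to within 0.04 of 0, the log2 ratio of Mga from E12.5 to E14.5 was 1.00 and 0.94, both just short of 2-fold.

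Mga, the scaffold of the complex, lies on chromosome 2 (119897228 to 119969581, plus strand, GRCm38). It stood at 38.6 CPM (37.5 to 39.7) at E12.5, 92.6 CPM (90.8 to 94.5) at E14.5 and 107 CPM (105 to 109.8) at E16.5. The order was therefore E16.5 over E14.5 over E12.5, with both later libraries far above the first. Mga was 2.40-fold higher at E14.5 than at E12.5 (2.32 to 2.49) and 1.16-fold higher again at E16.5 (1.12 to 1.19). Without E12.5 cells that carry a Y-linked UMI, its log2 ratio from E12.5 to E14.5 was 1.22 in place of 1.26.

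Max, the partner that Mga shares with the MYC family, lies on chromosome 12 (76937269 to 76962201, minus strand). Its level was 63.5 CPM (62.1 to 64.9) at E12.5, 39.8 CPM (38.6 to 41.0) at E14.5 and 27.8 CPM (26.6 to 29.1) at E16.5. Each stage was lower than the one before, with ratios of 0.627 (0.603 to 0.651) and then 0.699 (0.662 to 0.738). Set against Max UMIs of the same library, a ratio that no scaling enters, Mga UMIs were 3.83-fold higher at E14.5 than at E12.5 (3.64 to 4.03). At E16.5 they were 6.36-fold higher than at E12.5 (5.98 to 6.76). Both folds also hold the lower level of Max itself. From E12.5 to E16.5 Mga was 2.82-fold higher against Ring1, 3.04-fold against L3mbtl2, 2.65-fold against Rnf2 and 2.17-fold against Pcgf6. Against E2f6, which was also lower, it was 6.46-fold higher.

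E2f6, the repressive E2F, lies on chromosome 12 (16810963 to 16839742, plus strand). It stood at 12.6 CPM at E12.5, 3.46 CPM (3.11 to 3.84) at E14.5 and 5.44 CPM (4.90 to 6.02) at E16.5. The lowest level was thus at E14.5, 3.65-fold below E12.5, and E16.5 was 1.57-fold above E14.5 (1.35 to 1.82). These values rest on 1582, 355 and 375 UMIs, the fewest of the 7 genes. The pregranulosa-like cells, whose RNA could add to the sums, had more E2f6 than the germ cells at E14.5. After thinning to 6000 UMIs per cell, 10.3% of 155 pregranulosa-like cells (6.02 to 16.2%) and 1.83% of 8737 germ-cell-like cells (1.56 to 2.13%) held an E2f6 UMI.

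Pcgf6, which defines the complex, lies on chromosome 19 (47033617 to 47050906, minus strand). Its level was 48.2 CPM (47.0 to 49.4) at E12.5, 48.1 CPM (46.8 to 49.5) at E14.5 and 61.9 CPM (60.0 to 63.8) at E16.5. On the CPM scale the first 2 stages did not differ beyond counting error (ratio 0.999, 0.962 to 1.04), and E16.5 was 1.29-fold above E14.5 (1.23 to 1.34). With TMM or median-of-ratios scaling the log2 ratio from E12.5 to E14.5 was -0.27 and -0.33 in place of 0.00. That from E12.5 to E16.5 was 0.00 and -0.02 in place of 0.36.

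L3mbtl2, the MBT domain subunit, lies on chromosome 15 (81663889 to 81688315, plus strand). In CPM it was nearly level, at 37.3 CPM (36.2 to 38.4), 35.7 CPM (34.5 to 36.9) and 34.2 CPM (32.8 to 35.6) in stage order. The span from E12.5 to E16.5 was 1.09-fold, a log2 ratio of -0.13, which was -0.49 and -0.50 with TMM and median-of-ratios scaling. It overlaps Chadl on the other strand, and the sources used here do not say whether strand entered the counting.

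The ligase genes Rnf2 and Ring1 were also nearly level in CPM across stages. Rnf2, on chromosome 1 (151458004 to 151500955, minus strand), stood at 47.4 CPM (46.2 to 48.6), 53.8 CPM (52.4 to 55.3) and 49.7 CPM (48.1 to 51.4). Its highest level was at E14.5, 1.14-fold above E12.5 (1.10 to 1.18), and with TMM or median-of-ratios scaling that log2 ratio was -0.08 and -0.14 in place of 0.18. Rnf2 overlaps Trmt1l on the other strand. Ring1, on chromosome 17 (34020792 to 34024680, minus strand), stood at 21.6 CPM (20.8 to 22.5), 21.7 CPM (20.8 to 22.6) and 21.4 CPM (20.3 to 22.5), and on the CPM scale no pair of stages differed beyond counting error. With TMM or median-of-ratios scaling its log2 ratio was -0.26 and -0.32 from E12.5 to E14.5, and -0.38 and -0.39 from E12.5 to E16.5.

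**Figure D2:**
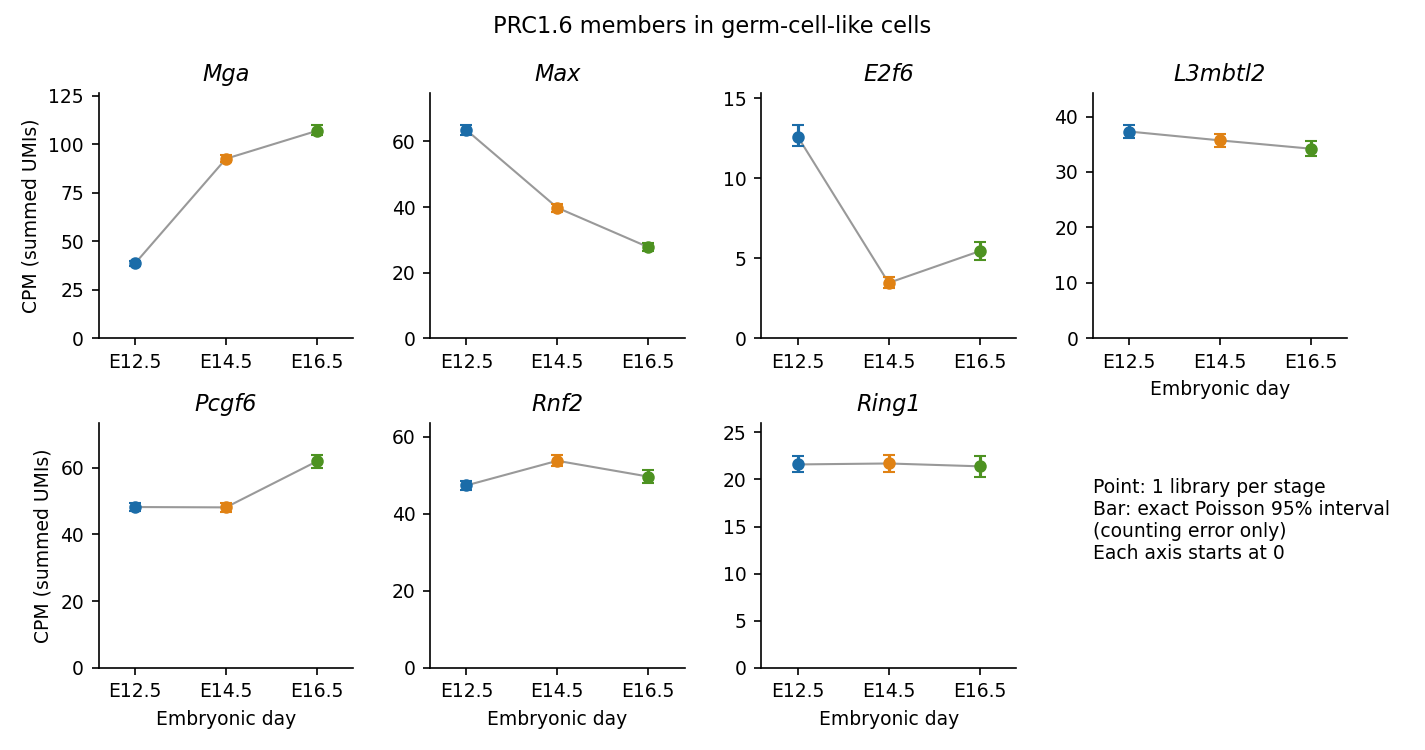
Level (CPM of summed UMIs, each axis from 0) of the 7 PRC1.6 genes in germ-cell-like cells by embryonic day, with 1 library per stage as a point and its exact Poisson 95% interval as a bar. Mga goes from 38.6 to 107 CPM and Max from 63.5 to 27.8 CPM, E2f6 is lowest at E14.5 (3.46 CPM), and Ring1 stays between 21.4 and 21.7 CPM.

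Counted per cell and not as a share of UMIs, Mga stood at 1.03, 1.07 and 1.39 UMIs per germ-cell-like cell in stage order. Max stood at 1.70, 0.458 and 0.361 and E2f6 at 0.338, 0.0399 and 0.0706. Less RNA per cell and fewer UMIs captured per cell cannot be told apart here. To compare cells at 1 depth, each was thinned to 6000 UMIs, which left out 8, 167 and 107 shallower germ-cell-like cells. Cells with a Mga UMI then made up 20.4% (19.3 to 21.6%), 43.1% (42.0 to 44.1%) and 46.9% (45.5 to 48.2%), against 60.4%, 62.4% and 71.3% before thinning. Cells with a Max UMI made up 31.4%, 21.7% and 14.3% (78.9%, 35.7% and 29.0% before thinning). Cells with an E2f6 UMI made up 7.63%, 1.83% and 3.21% (27.7%, 3.84% and 6.66%). The remaining genes kept to a narrow band after thinning, Pcgf6 at 24.6 to 31.0% of cells, Rnf2 at 24.9 to 27.3%, L3mbtl2 at 18.5 to 19.8% and Ring1 at 11.3 to 12.1%.

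Beside these, 155 pregranulosa-like cells of the E14.5 library at the same 6000 UMIs held UMIs of Mga in 27.7% (20.9 to 35.5%), Rnf2 in a share between 32.2 and 48.2%, Ring1 in 22.6% (lower bound 16.3%), Pcgf6 in 10.3% (6.02 to 16.2%) and L3mbtl2 in 6.45% (3.14 to 11.5%). At that stage Mga, Pcgf6 and L3mbtl2 were therefore found in a larger share of germ cells, and Rnf2, Ring1 and E2f6 in a larger share of pregranulosa-like cells, with intervals that did not overlap. Max was at 24.5% (18.0 to 32.1%) and did not differ beyond counting error. The sort for Oct4-EGFP can set which somatic cells remain. In the same 155 cells 29.0% (22.0 to 36.9%) held a UMI of Stra8, a germ cell gene, against 96.3% of germ-cell-like cells. The part of germ cell RNA or doublets in the members' shares of the pregranulosa-like cells was not tested, and no cell type in the table is known to lack these widely used genes.

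Within a stage, thinned UMIs of the 7 genes varied between cells little more than counting alone gives, with a variance over mean of 0.974 to 1.11. Genes of like mean level had a median of 1.01 to 1.07. The raw ratio was highest for Mga at E14.5 (1.10) and E16.5 (1.11), above 72.6% and 74.9% of genes of like level. Set against genes of like level, Ring1 at E16.5 (1.08) was above 91.9% and Max at E12.5 and E16.5 (1.07 in both) above 89.8% and 88.1%.

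The members were also summed by cluster. The 66 listed genes of Polycomb, MAX, E2F and MBT proteins were left out of the clustering, so the members did not shape it, though genes that vary with them did. Groups of at least 100 germ-cell-like cells from 1 library were clusters 0 and 7 at E12.5, clusters 2, 3, 5 and 6 at E14.5 and clusters 1 and 4 at E16.5. By Pou5f1, the pluripotency factor behind the reporter, the E14.5 clusters ran from 295 CPM in cluster 2 through 136 and 60.8 in clusters 3 and 5 to 21.3 in cluster 6. Prdm9, which marks recombination sites, ran the other way, from 7.75 CPM in cluster 2 to 246 in cluster 6. At E16.5, Prdm9 stood at 262 CPM in cluster 4 and 95.3 in cluster 1, and Stra8, the meiotic entry gene, at 474 and 35.1 CPM. Median depth at E14.5 went from 13236 UMIs in cluster 2 to 8570.5 in cluster 6, and its part in the levels was not tested. The E16.5 clusters had like depth (12582 and 12526).

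Ring1, nearly level in CPM across stages, was not level within them. At E14.5 it stood at 24.7 CPM in cluster 2, 24.7 in cluster 3, 21.0 in cluster 5 and 10.1 (8.57 to 11.8) in cluster 6. At E16.5 it stood at 10.4 CPM (9.21 to 11.7) in cluster 4 and 29.4 (27.7 to 31.1) in cluster 1. The clusters richest in Prdm9 within each library, 6 and 4, thus had the lowest Ring1. Highest over lowest was 2.45-fold at E14.5 (2.06 to 2.92) and 2.83-fold at E16.5 (2.48 to 3.23). Rnf2, the other ligase, went the same way by much less, 1.24-fold and 1.17-fold.

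E2f6 also had a wide range within E14.5 and E16.5. It stood at 5.69, 2.55, 2.39 and 1.10 CPM in clusters 2, 3, 5 and 6 of E14.5, 5.17-fold from end to end (3.15 to 9.05). At E16.5 it stood at 2.39 CPM in cluster 4 and 7.60 in cluster 1, 3.19-fold apart (2.43 to 4.23), an interval that overlaps that of Ring1. Cluster 6 holds 17 E2f6 UMIs, so that its level is the least precise.

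Mga and L3mbtl2 ran opposite to E2f6. Mga stood at 60.4, 98.7, 119 and 123 CPM in clusters 2, 3, 5 and 6, a range of 2.04-fold (1.92 to 2.17). At E16.5 it stood at 126 CPM in cluster 4, 1.32-fold above cluster 1. L3mbtl2 stood at 26.5, 38.8, 42.5 and 43.1 CPM in the same 4 clusters of E14.5 and at 44.8 and 26.3 in clusters 4 and 1 of E16.5. Its range was 1.63-fold at E14.5 and 1.71-fold at E16.5. The median range of all genes of at least 10 CPM was 1.82-fold at E14.5 and 1.37-fold at E16.5. The range of L3mbtl2 was thus below that median at E14.5 and above it at E16.5.

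Max and Pcgf6 lay within 1.11-fold and 1.07-fold between these clusters at E14.5 and within 1.23-fold and 1.14-fold at E16.5. In a finer clustering (Leiden resolution 1.0) Max ranged 1.87-fold at E14.5 (1.47 to 2.37) and 2.17-fold at E16.5 (1.83 to 2.56), and Pcgf6 1.32-fold and 1.30-fold. Of the 6 members of at least 10 CPM at E14.5, 2 (Mga and Ring1) had a range of 2-fold or more, beside 43.5% of all such genes. At E16.5 it was 1 of 6 (Ring1), beside 14.9%. At E12.5 it was 0 of 7, beside 1.86%, and Mga stood at 40.1 CPM in cluster 0 and 30.9 in cluster 7. Of the 10 leading genes of cluster 7, 3 are Y-linked (Eif2s3y, Uba1y and Ddx3y), so that this contrast sets cells with Y-linked RNA against the rest of a library labelled female.

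**Figure D3:**
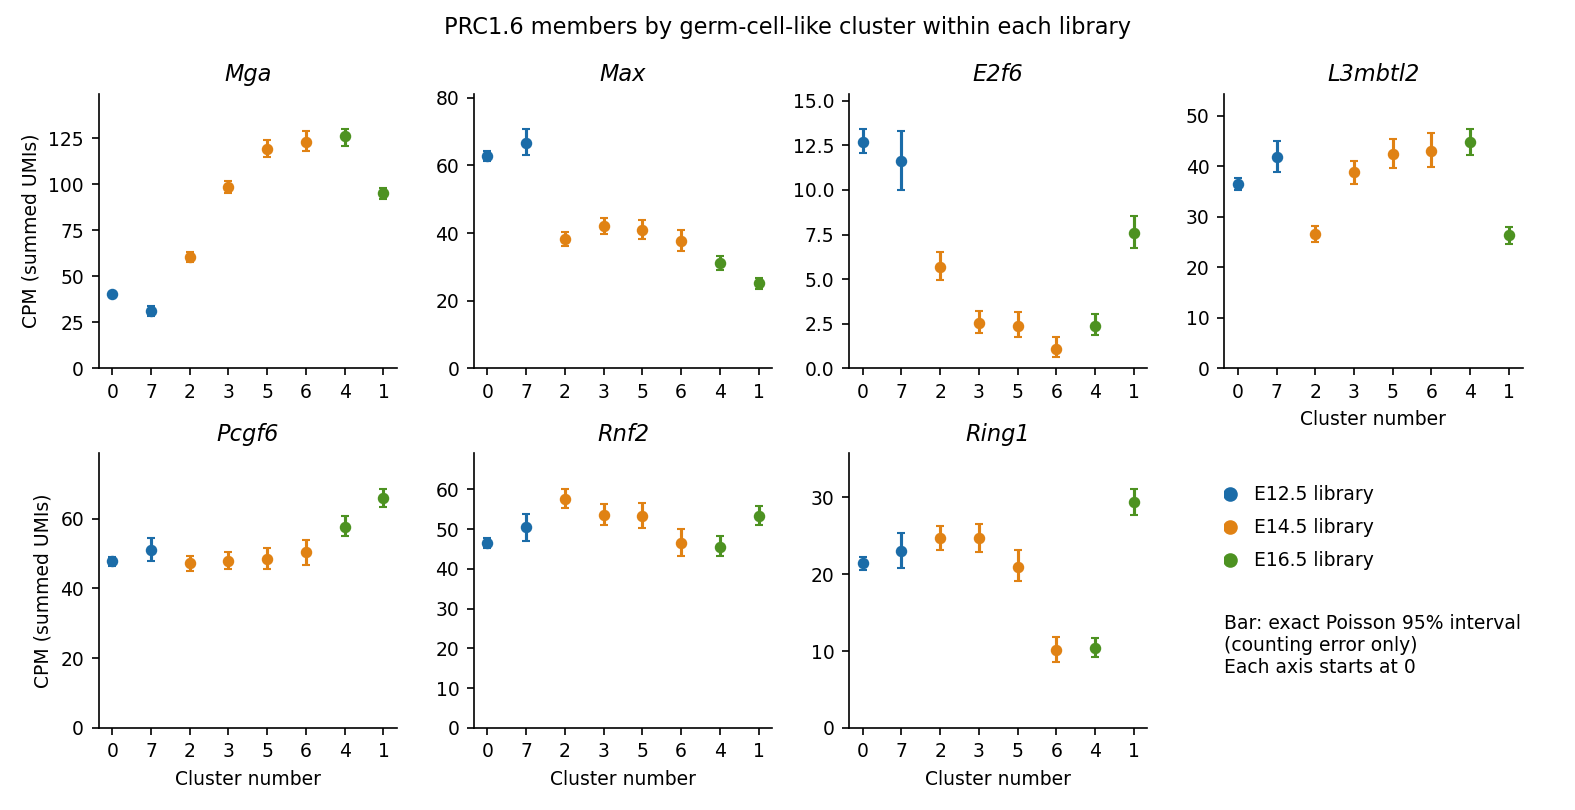
Level (CPM of summed UMIs, each axis from 0) of the 7 PRC1.6 genes in each cluster of at least 100 germ-cell-like cells from 1 library, coloured by stage and ordered within a library from high to low Pou5f1, with exact Poisson 95% intervals as bars. Ring1 is lowest in clusters 6 (10.1 CPM) and 4 (10.4 CPM), and E2f6 runs from 5.69 to 1.10 CPM within E14.5 while Mga runs from 60.4 to 123 CPM.

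Of the 9 partner subunits listed, 1 was higher by 2-fold or more and 1 lower by as much at E14.5 than at E12.5, 0 were past 2-fold between E14.5 and E16.5, and 7 lay within 2-fold over the whole span. These and the following list counts are to be read beside the shares over all genes. Those were 31.1% higher and 16.3% lower from E12.5 to E14.5 and 16.3% and 17.4% from E14.5 to E16.5. Over the whole span they were 37.0% and 22.7%, with 5703 of 14133 genes within 2-fold. Yaf2, one of the paired adaptors of variant PRC1 with Rybp, was 3.59-fold higher at E14.5 (12.6 to 45.4 CPM) and stood at 50.5 CPM at E16.5. Tfdp1, a dimer partner of E2F proteins, was the lower one, with 262, 98 and 61 UMIs and therefore at low levels (2.09, 0.956 and 0.884 CPM). Hdac1, a histone deacetylase, stood at 294, 177 and 165 CPM, and Hdac2 at 231, 216 and 159 CPM. The chromodomain gene Cbx3 (HP1 gamma) stood at 269, 166 and 158 CPM and Cbx1 at 225, 227 and 299.9 CPM.

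Subunits of other PRC1 forms lay on both sides. Of 23, 9 were higher by 2-fold or more and 2 lower by as much at E14.5 than at E12.5, beside 31.1% and 16.3% of all genes. From E14.5 to E16.5, 0 were higher and 4 lower by as much, beside 16.3% and 17.4%. The 4 lower are near the share of all genes, the 9 higher somewhat above it, and the 2 and the 0 below it. With 23 genes these counts are a description and were not tested. Pcgf2, a ring finger protein of canonical PRC1, stood at 45.0, 12.6 and 2.04 CPM. It was 22.0-fold lower at E16.5 than at E12.5, whereas Pcgf6 was 1.28-fold higher. Bmi1, also of this list, went the other way from Pcgf2, at 11.8, 23.6 and 15.8 CPM. Kdm2b, which brings PRC1.1 to CpG islands, stood at 44.2, 104 and 80.4 CPM, Auts2 at 38.7, 140.2 and 144 CPM, Pcgf5 at 82.1, 95.1 and 109.8 CPM, and Skp1a at 242, 265 and 392 CPM. Cbx8, a chromobox reader of H3K27 methylation, was 9.14-fold higher at E14.5 (1.78 to 16.3 CPM).

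The MAX network holds the other proteins that pair with Max or with its relative Mlx. Mycn, which activates through Max, stood at 116 CPM at E12.5, 32.6 at E14.5 and 5.57 at E16.5, 20.8-fold lower over the span. Mxd4, a repressive partner of Max, stood at 9.43, 123 and 70.1 CPM, 13.0-fold higher at E14.5. Mlxip stood at 8.82, 19.4 and 20.8 CPM and Mxi1 at 11.2, 16.3 and 16.2 CPM. In all, 2 of 11 were higher by 2-fold or more and 3 lower by as much from E12.5 to E14.5. From E14.5 to E16.5 these were 1 and 5, and the median log2 ratio was -0.89 beside 0.06 for all genes. That median is the ratio of Myc, which rests on 11 UMIs at E14.5 and 4 at E16.5 (ratio 0.540, 0.126 to 1.82).

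Among 10 other E2F and pocket protein genes, 2 were higher by 2-fold or more and 3 lower by as much at E14.5 than at E12.5. E2f8, an atypical repressive E2F, stood at 10.9, 2.92 and 1.06 CPM, and E2f1, an activator, at 79.6, 67.4 and 39.9 CPM. E2f4 (25.1, 38.9 and 41.7 CPM), E2f5 (40.9, 58.2 and 81.4 CPM) and the retinoblastoma gene Rb1 (8.52, 18.0 and 18.1 CPM) were higher at both later stages than at E12.5. Of 6 other MBT domain genes measured, 3 were higher by 2-fold or more and 1 lower by as much at E14.5. Scml2, a Polycomb protein of the germ line, stood at 7.58, 63.4 and 81.7 CPM, Sfmbt1 at 24.0, 58.0 and 53.6 CPM, Mbtd1 at 41.3, 64.2 and 67.6 CPM and Sfmbt2 at 13.5, 6.42 and 7.36 CPM.

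All 17 germline genes listed as PRC1.6 targets were higher at E14.5 than at E12.5. Some had few UMIs at E12.5, such as Gm4969 with 54 over 4684 cells, and the part of free RNA in such low levels was not tested. Of 17, 16 were at least 2-fold higher at E14.5 than at E12.5 and 0 at least 2-fold lower, with a median log2 ratio of 2.76 beside 0.30 for all genes. Many of them belong to the meiotic programme by which the stages differ, so this count is a description. Slc25a31, a germ cell ADP/ATP carrier, stood at 59.1, 362 and 447 CPM, and Stag3, a meiotic cohesin, at 30.3, 179 and 239.8 CPM. Taf7l, a germ cell TFIID subunit, stood at 1.16, 345 and 627 CPM, and Mael, of the piRNA pathway, at 50.4, 369 and 538 CPM. Smc1b, a cohesin whose window holds the E2F motif shown above, stood at 139, 1629 and 3104 CPM, and Hormad1, of the meiotic chromosome axis, at 32.6, 94.2 and 245 CPM.

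The remaining listed targets had a wide range of ratios. Stk31 was 4.95-fold, Tdrkh 2.12-fold, Tex101 69.5-fold, Dazl 2.52-fold, Sycp1 25.7-fold, Sycp3 17.3-fold, Gm4969 (Meiosin) 13.6-fold and Stra8 444-fold higher at E14.5. The helicase gene Ddx4 was also higher but short of 2-fold, at 123, 209 and 168 CPM (1.70-fold at E14.5). Tuba3a and Tuba3b, tubulin genes known as E2f6 targets, were 3.74-fold and 6.76-fold higher, though reads of near-identical copies may not be told apart. From E14.5 to E16.5, 4 of 17 were at least 2-fold higher (Sycp1, Sycp3, Gm4969 and Hormad1) and 3 at least 2-fold lower (Stra8, Tuba3a and Tuba3b). Over the whole span 15 were at least 2-fold higher and 0 lower, beside 37.0% and 22.7% of all genes.

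Of 10 other repressors of germline genes, 3 were higher by 2-fold or more and 0 lower by as much at E14.5 than at E12.5. That share is near the 31.1% of all genes and is no result about the list. Setdb1, a histone H3K9 methyltransferase, stood at 34.1, 105 and 113 CPM, and Uhrf1, the cofactor of maintenance methylation, at 6.29, 42.0 and 47.1 CPM. Trim28, a corepressor of zinc finger proteins, stood at 535, 281 and 208 CPM, Dnmt1 at 102, 130.4 and 47.9 CPM, the demethylase gene Kdm1a at 98.8, 72.7 and 54.1 CPM, and the methyltransferase gene Ehmt2 at 32.9, 46.4 and 16.5 CPM.

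**Figure D4:**
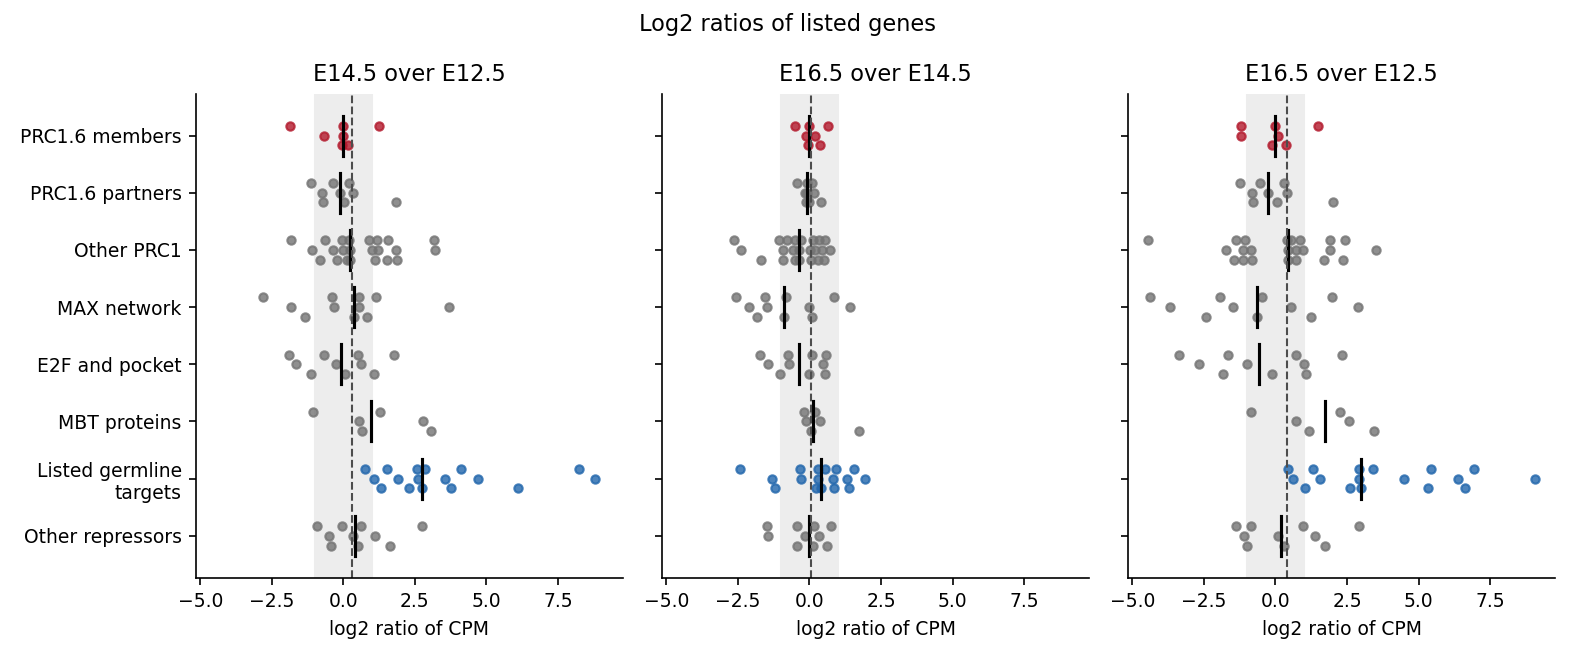
Log2 ratio of CPM of each listed gene (points) in the 3 comparisons, by list, with the list's median as a black bar, the median of all genes as a dashed line and the range within 2-fold shaded. The 7 PRC1.6 genes (red) lie on both sides of 0 with medians of 0.00, -0.02 and -0.02, while the 17 listed germline targets (blue) have medians of 2.76, 0.42 and 2.99.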

How the data were processed

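The deposited table held 14133 genes and 19144 cells as natural log values: the authors had scaled each cell's UMIs to a total of 10000, added 1 and taken the logarithm. With this undone, 100.0% of 68606039 non-zero values lay within 0.01 of a whole UMI count, so sums of recovered UMIs were used, as planned. A 10x Genomics Chromium 3' version 2 kit was used, per the labels' protocols. Cell Ranger 2.0.0, FastQC and the mm10 build are named, per the submitters' processing notes, without settings. Cells had 1998 to 5489 genes and at most 5.00% mitochondrial UMIs.

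Doublets were sought with Scrublet (scanpy 1.11.5, expected rate 6%), which marked 38 cells (0.20%). So low a share means that it may not have worked. These 38 cells were dropped. Clustering used 2000 variable genes, 30 principal components, 15 neighbours and Leiden resolution 0.5, without 66 listed genes. Cluster names came from marker lists, by the share of a list detected in at least 10% of the cells and by the 10 leading genes. UMIs of germ-cell-like cells were summed per stage. Levels carry exact Poisson intervals, ratios exact conditional intervals, ratios of UMI ratios normal intervals on the log scale, and shares Clopper-Pearson intervals, all 95%. All genes had the required 10 UMIs over the 3 sums. Ratios and intervals were tested on simulated data.

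The rule for naming genes took the 7 members, all listed targets, and from each other list the 4 of highest mean CPM plus, per comparison, the largest ratio in genes that reached 10 CPM. It also took the 3 genes most like each member, of which 1 is not reported here. Tfdp1, Bmi1, Myc, Eif2s3y, Uba1y, Ddx3y, and Pou5f1, Prdm9 and Stra8 by cluster, were named outside it after their values were seen. The members and lists were chosen with earlier results of these data known. Other scalings, filters, depths, doublet handling and a finer clustering were tried as alternatives. Gene positions are from GENCODE vM21 (GRCm38).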

Additional observations from a re-analysis of the deposited data

How the results depend on the processing

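The counts of members and of listed targets, the member ratios, cluster ranges and shares were recomputed under up to 9 other settings, all planned. Counts of the other lists, UMI ratios between members, motif counts, the pregranulosa-like shares and the Stra8 comparison were not. No paired analysis was possible because each stage was 1 library, and for the same reason no replicate could be left out. The number of PRC1.6 members at least 2-fold higher from E12.5 to E14.5 was 1 as reported and 0 under TMM and under median-of-ratios scaling. The number at least 2-fold lower was 1 as reported and 2 under median-of-ratios scaling, where Max joined E2f6. The other 45 of 48 counts of members, and all 48 counts of listed targets, stayed within 1.5 times the reported count. The setting with no minimum count could not move any count or ratio, since all genes had passed that minimum. Its values repeat the reported ones and say nothing about stability, but they are included in these totals and in that of the member ratios. Of 189 recomputed member ratios 46 moved, past the counting interval or, for the 4 that are differences of natural logs, off the reported sign, and 0 of those past 2-fold turned direction. Directions of small ratios did turn, for L3mbtl2 from E12.5 to E14.5 (0.04 in thinned cells), Ring1 from E14.5 to E16.5 (0.04 as a mean over cells), Pcgf6 over the whole span and Rnf2 from E12.5 to E14.5 (values given above), and Rnf2 from E12.5 to E16.5 (-0.29 under TMM, -0.31 under median-of-ratios scaling and -0.02 as a difference of natural logs). The cause was not tested. At Leiden resolution 1.0, which gives more and smaller clusters, 15 of 21 cluster ranges moved past the counting interval. The range of Ring1 at E16.5 was then 5.32-fold in place of 2.83-fold, and that of E2f6 at E16.5 4.06-fold in place of 3.19-fold. Those of E2f6 and Mga at E12.5 were 1.67-fold and 1.52-fold, and that of L3mbtl2 at E14.5 was 2.49-fold in place of 1.63-fold. Thinned to 3000 UMIs, Mga was found in 10.9%, 24.7% and 27.9% of cells in stage order. Depth limits E2f6 most, with 355 UMIs at E14.5.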

Other observations

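Likeness of course was described over the 8 groups of at least 100 germ-cell-like cells of 1 cluster and library, as Pearson's r of log2(CPM + 1) among 6978 other genes of at least 10 CPM. The groups share libraries and depth, and with so many genes and so few groups high values are common. Kdm5a, a histone H3K4 demethylase gene, was among the 3 genes most like Mga (r = 0.995), at 61.4, 277 and 326 CPM in stage order, beside Tchh (0.997) and Fam8a1 (0.996). Among those closest to Max were Aamp (0.991) and Akr1b3 (0.990), and closest to E2f6 Atp5sl (0.995), Zfp106 (0.990) and Ddx51 (0.990). L3mbtl2 was most like Top2a (0.977), the topoisomerase of dividing and meiotic chromosomes, then Ggps1 (0.973) and Zw10 (0.954). Ring1 was most like Acat1 (0.986), Cmtm4 (0.968) and Psma8 (0.966), a proteasome subunit gene of the germ line. For Pcgf6 these were Tbc1d19 (0.997), the chaperone gene Calr (0.990) and Trappc2l (0.989), and for Rnf2 Tmem208 (0.969), Fam173a (0.957) and Klf7 (0.952). Among the members themselves Mga and E2f6 had the most negative r (-0.88), followed by Mga and Max (-0.79), while Rnf2 and Ring1 had the highest (0.75).

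At E12.5, 67 of 4676 thinned germ-cell-like cells already held a Stra8 UMI, 56 of them a single one. Of the 16 other listed targets, 9 had a ratio between those cells and the rest whose interval lay above 1, and 7 did not (Mael, Stag3, Sycp1, Tdrkh, Taf7l, Tuba3b and Gm4969). The share of all genes with such an interval was not computed, so this count is no result about the list. Smc1b was at 313 CPM against 134 in the 4609 cells without a Stra8 UMI (2.34-fold, 1.94 to 2.79), Slc25a31 at 127 against 56.1 CPM (2.26-fold, 1.68 to 2.99) and Dazl at 851 against 446 CPM (1.91-fold, 1.71 to 2.13). For the PRC1.6 members other than Ring1 the interval of this ratio held 1, so neither a difference nor its absence is shown. Mga was at 49.8 against 38.8 CPM (1.28-fold, 0.779 to 1.99) and Max at 84.6 against 64.0 (1.32-fold, 0.912 to 1.85). E2f6 was at 22.4 against 13.2 (1.70-fold, 0.769 to 3.26). L3mbtl2 alone was lower, at 27.4 against 36.1 (ratio 0.757, 0.377 to 1.36). Ring1, at 37.3 against 20.6 CPM on 15 UMIs, had an interval just above 1 (1.01 to 3.01). Stra8 itself stood at 0.112 CPM in cluster 7 of E12.5, some of whose leading genes are Y-linked, and at 3.76 CPM in cluster 0. The part of cells with Y-linked RNA in this comparison was not tested. The genes named here were chosen after their values were seen.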
